A study of Rattus norvegicus with 12 samples.

Results

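In rat liver, 694 loci outside the Ensembl annotation were transcribed at a mean FPKM of at least 1 over 12 RNA-seq libraries. They are the rows of the expression table with an ID such as Novel00694, in place of an Ensembl ID, that passed this mean, and they were chosen on the measured level alone, so the level itself is given as a description. The table held 1792 such IDs among 34194 IDs, and the 694 loci were thus 38.7% of them. Of the remainder, 1060 were above 0 in at least 1 library with a lower mean and 38 were at 0 in every library. Among the 32402 IDs of the Ensembl rat annotation (ENSRNOG IDs), 11160 or 34.4% had a mean FPKM of at least 1, and these are the annotated rows used for comparison. The sources used here do not say how these loci were assembled. They were read as unannotated from the form of the ID, and no ID of either kind was paired here with a symbol, a position or a sequence.

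The study asked whether tea infusions alter hepatocarcinogenesis in male Wistar rats given N-nitrosodiethylamine (NDEA), a compound that alkylates DNA after activation by liver enzymes and induces liver tumors. Control rats received saline injections and water. The NDEA group received water and intraperitoneal NDEA at 25 mg/kg, injected 2 times weekly between weeks 2 and 9. The NDEA+FYT and NDEA+CFT-1 groups received the same injections and drank an infusion of the common tea Fuyun6 (FYT) or of CFT-1, a tea variety rich in the catechin EGCG, and all livers were taken at week 20 with 3 libraries in each group. Each library is bulk liver RNA, in which fewer cells of a type and less RNA per cell cannot be told apart. The markers of hepatocytes and other liver cells were not checked, because no ID was paired with a symbol here.

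Reads that map between annotated genes can be joined into additional loci when a transcriptome is assembled. Such loci may be long noncoding RNAs, protein-coding genes absent from the annotation, extended ends or antisense transcripts of known genes, or RNA of repeated elements. In liver, RNAs of secreted proteins and metabolic enzymes make up much of the mRNA, and many noncoding transcripts are present at low levels. The class of each locus described here is unknown.

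FPKM is the number of fragments counted on a locus, divided by its length and by a library total. The fragments in the rows of the table were 89.7 to 93.8% of the totals behind the FPKM. The deposited values were precise enough to recover the whole number of fragments and the length in bases of all 694 loci. The totals behind the FPKM were lowest in NDEA replicate 1, at 15495482 fragments, and highest in NDEA+CFT-1 replicate 1, at 25718747. Between 218301 and 370570 fragments fell on the 694 loci in a library, and the median locus had 89 to 143 fragments. NDEA replicate 1 stood apart in all rows tested, since 50.1% of the annotated rows had their highest value there. Control replicate 3 and NDEA+CFT-1 replicate 2 held the lowest value of 32.0% and 29.6% of the annotated rows. Group counts without these 3 libraries are given beside the group order and the most abundant class, a choice made after seeing the data.

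Most of the loci were of low abundance. Their mean FPKM ran from 1.001 to 699.6 with a median of 2.40 and quartiles of 1.49 and 4.92, whereas the annotated rows had a median of 7.53 and quartiles of 3.03 and 21.9. A mean FPKM between 1 and 2 was found for 298 loci, 42.9% of them, and for 15.2% of the annotated rows. A further 226 loci had a mean FPKM between 2 and 5, 94 between 5 and 10 and 61 between 10 and 50. The remaining 15 loci, 2.16%, reached 50 or more, against 12.8% of the annotated rows. Compared with annotated rows, more of the loci thus lay near the threshold. At the threshold itself, Novel01555 and Novel00980 had means of 1.001 and Novel01646 of 1.004, while Novel00239, Novel01541 and Novel01371 were left out with 0.9998, 0.9948 and 0.9941.

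**Figure D1:**
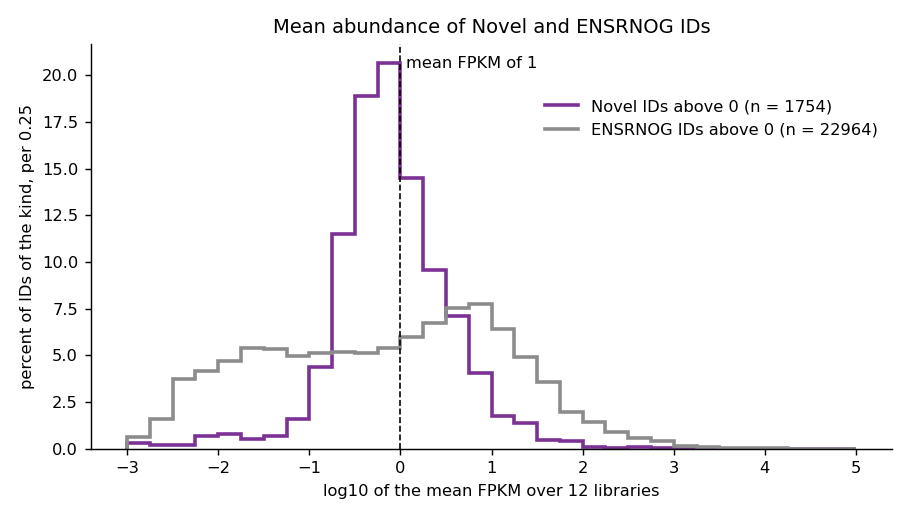
Percent of the 1754 unannotated IDs and of the ENSRNOG IDs above 0 (vertical axis, per step of 0.25) by the log10 of the mean FPKM over 12 libraries (horizontal axis), with the threshold of 1 as a dashed line. The unannotated IDs peak just below the threshold, with 20.6% in the last step before it, and the ENSRNOG IDs spread over a wider range.

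The length of the loci, which the choice of members did not use directly, covered a wide range. The median length was 2279 bases with quartiles of 1254 and 3647, against 1992 bases with quartiles of 1293 and 3046 for the annotated rows. The shortest locus had 191 bases and was the single one of 200 bases or less, the customary lower limit for a long RNA, and the longest had 15775. By level, the median length of the loci was 2267 bases between a mean FPKM of 1 and 2 and 2434 bases at 50 or more. In the annotated rows, the medians in these classes were 2232 and 1324 bases. FPKM divides by length, so the fragments behind a value varied widely. The median locus had a count of 116 per library, 376 loci had a median count of at least 100 and 38 had a median count under 20.

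The summed level was concentrated in few loci. The 3 most abundant held 30.3% of the summed mean FPKM of the 694 loci and the 10 most abundant held 42.8%. Novel00694, a locus of 334 bases, was the most abundant with a mean FPKM of 699.6, rank 137 among all IDs. Its FPKM was 686.8, 746.8 and 490.6 in Control, 801.7, 582.6 and 556.4 in NDEA, 574.5, 704.3 and 656.9 in NDEA+FYT, and 707.6, 1312 and 575.1 in NDEA+CFT-1. NDEA+CFT-1 replicate 2 lay above every other library, and the 4 groups otherwise overlapped.

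Novel00359, of 3539 bases, followed with a mean FPKM of 561.6. Its FPKM was 481.7, 520.8 and 507.2 in Control, 454.1, 327.1 and 432.0 in NDEA, 375.3, 647.7 and 810.2 in NDEA+FYT, and 575.5, 1251 and 356.3 in NDEA+CFT-1. The Control libraries lay close together and above the NDEA libraries, while the libraries of both tea groups lay between 356.3 and 1251 and overlapped with Control and NDEA. The annotated row whose log2(FPKM + 1) was most like it over the 12 libraries was ENSRNOG00000030387, with a Pearson r of 0.95, a partner looked up after the values were seen.

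Novel01553, of 2434 bases, had a mean FPKM of 494.2 and was lowest in NDEA. The FPKM was 597.0, 390.4 and 636.9 in Control, 173.4, 399.7 and 375.3 in NDEA, 460.7, 438.3 and 565.3 in NDEA+FYT, and 614.6, 664.9 and 613.9 in NDEA+CFT-1. All 3 libraries of either tea group lay above all 3 NDEA libraries, and NDEA replicate 1 was far below the rest. On the log2(FPKM + 1) scale NDEA+CFT-1 exceeded NDEA by 1.09 (SE 0.297, limma with Benjamini-Hochberg adjusted p = 0.326). The difference did not pass the threshold of an adjusted p under 0.05, and it was 0.70 without NDEA replicate 1.

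The next 7 loci by level had mean FPKM from 70.8 (Novel01239) to 180.7 (Novel00431), and 6 of the 694 loci had a mean of 100 or more. Novel00431, of 606 bases, had FPKM of 322.8, 248.9 and 60.56 in Control and of 77.95, 95.14 and 248.0 in NDEA. Its values in NDEA+FYT were 209.9, 240.4 and 247.9 and those in NDEA+CFT-1 158.2, 141.2 and 116.9. The 3 NDEA+CFT-1 libraries lay below the 3 NDEA+FYT libraries, and Control and NDEA each covered both. Novel00811 (665 bases) ranged from 79.3 to 212 FPKM, Novel01180 (4551 bases) from 55.7 to 139, Novel00539 (8220 bases) from 33.0 to 174, Novel00192 (391 bases) from 35.5 to 142 and Novel01239 (2490 bases) from 39.1 to 90.1. For Novel00192 and Novel01239 the lowest library was NDEA replicate 1, and for Novel00811 the highest was NDEA+CFT-1 replicate 2, as for Novel00694.

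**Figure D2:**
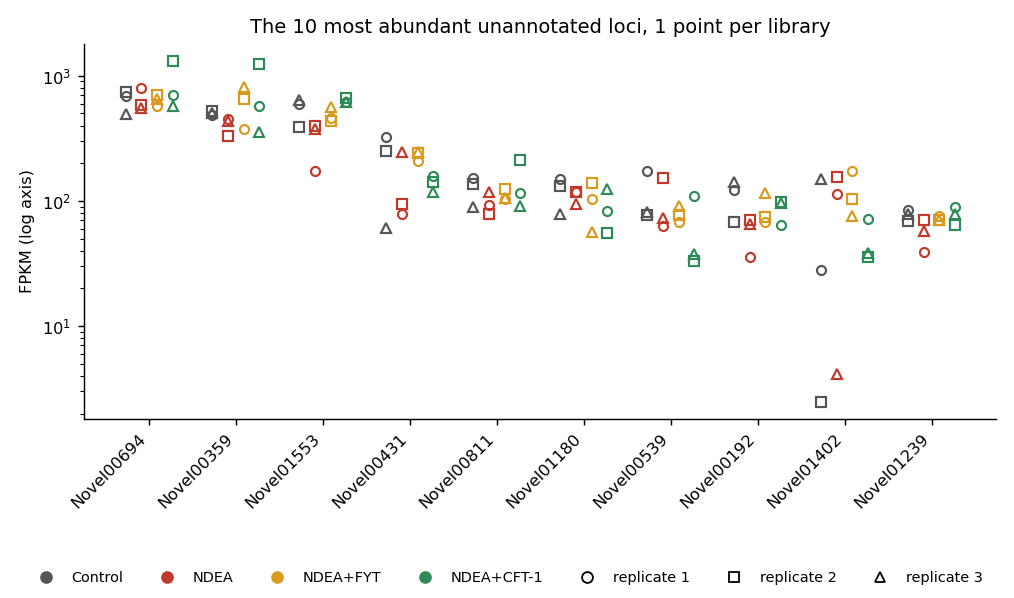
FPKM (vertical log axis) of the 10 most abundant unannotated loci in each of the 12 libraries, with the group as color and the replicate as symbol. Novel01402 covers the widest range, from 2.49 to 173, and NDEA+CFT-1 replicate 2 is the highest library for Novel00694 and Novel00359.

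The spread between libraries of 1 group was measured as the pooled SD of log2(FPKM + 1) within the 4 groups. Its median was 0.352 for the unannotated loci and 0.296 for the annotated rows. Between a mean FPKM of 1 and 2 the medians were 0.325 and 0.344, the loci being the less variable there. Between 2 and 5 they were 0.377 and 0.317, between 5 and 10 0.385 and 0.294, between 10 and 50 0.332 and 0.267, and at 50 or more 0.407 for 15 loci and 0.287. From a mean FPKM of 2 upward, the median spread of the loci was thus above that of annotated rows of like level, and these differences were not tested. The counts behind these values give the part that counting alone would add. Over the 684 loci with counts in every library, the median CV within groups was 34.2% while the median CV that counting alone gives was 9.64%, and 564 of them varied by more than 2 times the counting CV. Fragments without molecular identifiers need not be independent molecules, so this CV and the limits given for a count of 0 cover counting error only. The CV within groups is between separate livers, and annotated rows were not set beside it, so it shows nothing particular to the loci.

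**Figure D3:**
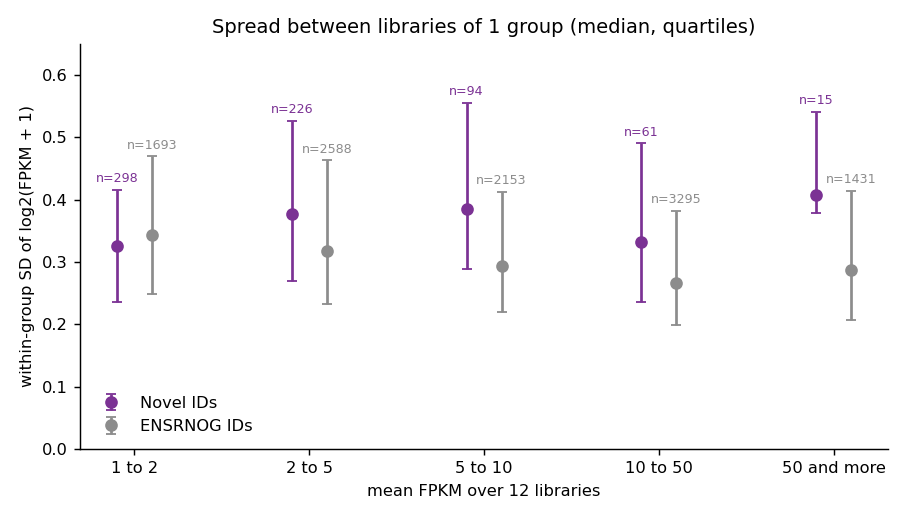
Within-group SD of log2(FPKM + 1) (vertical axis) in 5 classes of mean FPKM (horizontal axis), with points at the median and bars from the first to the third quartile for unannotated loci and ENSRNOG IDs. The median of the unannotated loci lies below the ENSRNOG median in the class from 1 to 2 (0.325 and 0.344) and above it in the other classes.

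A library without a single fragment was rare. Of the 694 loci, 684 had counts in all 12 libraries and 10 (1.44%) were at 0 in at least 1, against 1.58% of the annotated rows. In the class from 1 to 2 FPKM, 2.35% of the loci and 7.38% of the annotated rows had a library at 0. Between 5 and 10 FPKM the order turned, at 2.13% and 0.372%, and in the remaining classes the loci had the lower share. Novel00701 (382 bases) was at 0 in Control replicate 3 and NDEA+CFT-1 replicate 1, where a count of 0 allows an FPKM of up to 0.318 and 0.305, and reached 23.7 in NDEA replicate 3. Novel00188 (1729 bases) was at 0 in Control replicate 3, which allows up to 0.0702, and reached 25.9 in NDEA replicate 1.

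Novel00602, of 407 bases, varied most within groups, with an SD of 2.72 on the log2(FPKM + 1) scale. Its FPKM was 34.11, 0.2609 and 141.1 in Control, 0.4757, 0.5947 and 55.91 in NDEA, 52.92, 0.6935 and 0.7938 in NDEA+FYT, and 0.4777, 0.928 and 0.6016 in NDEA+CFT-1. The libraries fell into 4 with at least 34.11 FPKM and 8 below 1 FPKM, with a gap of 4.19 between them on the log2 scale. The 4 high libraries came from Control, NDEA and NDEA+FYT, so the split crossed the groups. The locus passed the threshold only through these 4 libraries. Of the other 693 loci, Novel00505 was most like it, with a Pearson r of 0.90 over the 12 libraries.

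Novel01402, of 5775 bases and among the 10 most abundant loci, had a within-group SD of 1.96 with counts from 271 to 21256. Its FPKM was 27.98, 2.491 and 148.9 in Control, 112.8, 155.5 and 4.149 in NDEA, 172.6, 104.4 and 75.88 in NDEA+FYT, and 71.09, 35.8 and 38.01 in NDEA+CFT-1. Control replicate 2 and NDEA replicate 3 lay far below every other library, and Control and NDEA each held both high and low values. Novel01575 (6224 bases) also crossed the groups, with FPKM from 0.270 in NDEA replicate 1 to 13.4 in NDEA+FYT replicate 1. The steadiest loci were Novel01192, Novel01538 and Novel00757, with SDs of 0.0787, 0.0831 and 0.0900. Novel01192 (3309 bases) stayed between 2.32 and 3.01 FPKM in all 12 libraries, with 11 of them at or above 2.68.

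When the 12 values of a locus were sorted, 41 loci (5.91%) had a gap of at least 1 on the log2 scale between neighbors, against 8.75% of the annotated rows. Up to a mean FPKM of 10 the loci had the lower share, with 4.36% against 12.3% between 1 and 2. Their share was the higher between 10 and 50, at 8.2% against 6.13%, and at 50 or more, at 13.3% against 6.08%. A single library stood above the gap for 25 of the 41 loci and below it for 6. The lone high library was NDEA replicate 1 for 19 of the 25 loci, and for 680 of 708 annotated rows. The lone library was Control replicate 1 for 3 loci above the gap and for 2 below it. Novel00193 (1698 bases) had 31.01 FPKM in NDEA replicate 1 and between 2.024 and 5.918 in the other 11 libraries, and 128 annotated rows followed it with an r of at least 0.9. Novel01279 (824 bases) had 3.839 FPKM in NDEA+CFT-1 replicate 2 and between 15.04 and 42.36 elsewhere. For Novel00193 and Novel01279 the value of 1 library set the group mean, and their differences between groups reached no unadjusted limma p under 0.05.

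NDEA replicate 1, which stood apart for annotated genes, also did so for the unannotated loci. It held the highest value of 257 loci (37.0%), against 50.1% of the annotated rows, and its median deviation from the mean of each row was 0.21 and 0.33 on the log2 scale. Control replicate 1 held the highest value of 87 loci (12.5%), against 4.44% of the annotated rows. Control replicate 3 was lowest for 199 loci (28.7%), NDEA+CFT-1 replicate 2 for 157 (22.6%) and NDEA+CFT-1 replicate 3 for 91 (13.1%, against 3.82% of the annotated rows). In NDEA+CFT-1 replicate 3 the median deviation was -0.21 for the loci and -0.02 for the annotated rows. All 3 NDEA+CFT-1 libraries had negative median deviations over the loci, from -0.07 to -0.21.

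**Figure D4:**
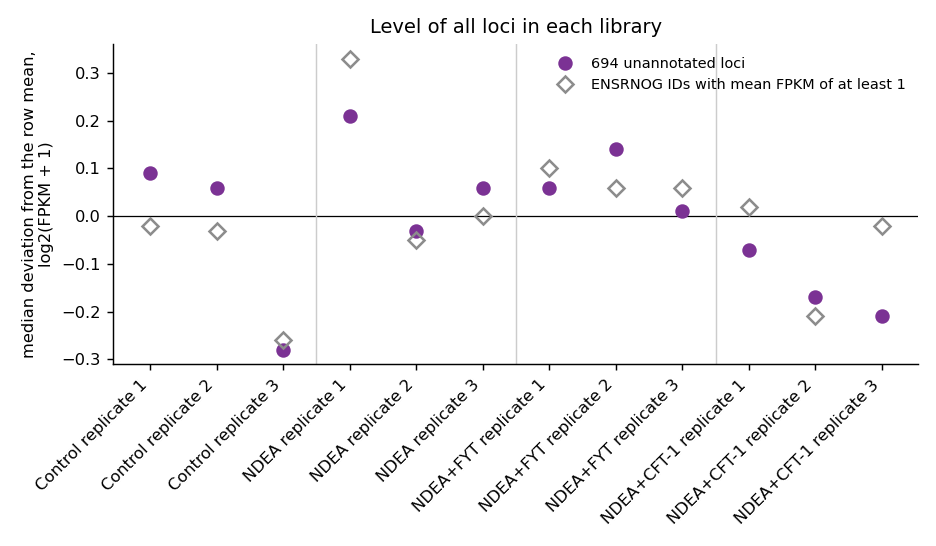
Median over rows of the deviation from the row mean, on the log2(FPKM + 1) scale (vertical axis), in each of the 12 libraries (horizontal axis) for the 694 unannotated loci (filled) and the annotated rows (open). NDEA replicate 1 is the highest library for both, and the largest difference between both kinds is in NDEA+CFT-1 replicate 3, at -0.21 and -0.02.

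The loci held under 1% of the summed FPKM in every library. The share was 0.934%, 0.836% and 0.750% in Control, 0.837%, 0.781% and 0.812% in NDEA, 0.856%, 0.916% and 0.896% in NDEA+FYT, and 0.835%, 0.939% and 0.723% in NDEA+CFT-1. The NDEA+FYT mean of 0.890% ± 0.0308 (SD, n = 3) was above the NDEA mean of 0.810% ± 0.0281 without overlap, with an exact two-sided permutation p of 0.1, the smallest that 3 libraries against 3 can give, and 0.4 after adjustment over the 4 comparisons. The other 3 comparisons had exact permutation p-values of 0.6 to 0.8. As a share of the FPKM outside the 100 most abundant rows, the loci held 1.71% ± 0.0845 in NDEA+FYT, 1.55% ± 0.106 in NDEA and 1.72% ± 0.094 in Control (SD, n = 3 each). On that base NDEA+FYT and NDEA had an exact permutation p of 0.2, and NDEA and Control one of 0.1. Without the 10 most abundant loci, the NDEA+CFT-1 share was 0.425% ± 0.0266 (SD, n = 3), below 0.515% ± 0.0452 in NDEA and 0.512% ± 0.0269 in NDEA+FYT. Neither of these differences had overlapping libraries, and each had an exact permutation p of 0.1.

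On the FPKM as deposited, the group with the lowest mean was most often NDEA+CFT-1. The lowest mean log2(FPKM + 1) was in NDEA+CFT-1 for 365 loci (52.6%) and in Control for 170 (24.5%), whereas among annotated rows it was in NDEA+CFT-1 for 35.6% and in Control for 43.0%. The highest mean was in NDEA for 310 loci (44.7%), in NDEA+FYT for 188 (27.1%), in Control for 121 (17.4%) and in NDEA+CFT-1 for 75 (10.8%). Among annotated rows these shares were 47.6%, 28.2%, 8.26% and 15.9%. Without Control replicate 3, NDEA replicate 1 and NDEA+CFT-1 replicate 2, the lowest mean was in NDEA+CFT-1 for 373 loci (53.7%) and 30.6% of the annotated rows. The highest mean was then in Control for 242 loci (34.9%, annotated rows 19.1%), in NDEA+FYT for 218 (31.4%, annotated rows 37.2%) and in NDEA for 150 (21.6%, annotated rows 15.3%). With NDEA replicate 1 alone left out, it was in NDEA+FYT for 294 loci (42.4%, annotated rows 49.9%) and in NDEA for 183 (26.4%, annotated rows 21.2%). With Control replicate 3 alone left out, it was in Control for 214 loci (30.8%, annotated rows 13.7%). The order also depended on the scaling, which was varied after seeing the data. After median-of-ratios scaling the lowest mean was in NDEA+CFT-1 for 307 loci (44.2%, annotated rows 28.9%). After quantile normalization it was most often in NDEA, for 240 loci (34.6%, annotated rows 32.4%), and in NDEA+CFT-1 for 213 (30.7%, annotated rows 24.2%). Under both scalings the highest mean was most often in Control, for 231 loci (33.3%, annotated rows 21.8%) and 272 loci (39.2%, annotated rows 24.5%). The spread within each group enters these counts and no test was made of them.

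Across the 4 groups, limma's moderated F test on log2(FPKM + 1), fitted on all 11854 rows with a mean FPKM of at least 1, called 0 of the 694 loci at a Benjamini-Hochberg adjusted p under 0.05 (0% of all rows). At an unadjusted p under 0.05, 66 loci (9.51%) passed, and 6.22% of all rows did. A weighted count model (limma-voom) on the recovered fragments also called 0 loci after adjustment and 83 before it (7.14% of all rows). Without NDEA+CFT-1 replicate 3, 41 loci passed before adjustment (4.64% of all rows). The 5 loci with the smallest p were Novel00045, Novel01316, Novel00095, Novel01095 and Novel01679, with unadjusted p from 0.00112 to 0.00448 and adjusted p of at least 0.791.

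Novel00045, of 3053 bases, had the smallest p of the F test. Its FPKM was 0.374, 0.383 and 0.106 in Control, 3.42, 1.54 and 1.59 in NDEA, 0.931, 1.83 and 1.14 in NDEA+FYT, and 0.484, 0.603 and 0.321 in NDEA+CFT-1. All NDEA and NDEA+FYT libraries lay above all libraries of Control and NDEA+CFT-1. The locus passed the mean FPKM of 1 only through NDEA, since the mean of the other 9 libraries was 0.686. This held for 57 of the 694 loci (8.21%) with their highest group, NDEA being that group for 33 of them. For such loci the filter favored a high value in that group, which enters the counts of the comparisons below. The same count is not given here for annotated rows. For Novel00045, NDEA exceeded Control by 1.26 on the log2(FPKM + 1) scale (SE 0.251, limma adjusted p = 0.524). The annotated row most like it was ENSRNOG00000005330, with an r of 0.94 over 12 libraries, and 17 annotated rows had an r of at least 0.9.

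Novel01316, of 3434 bases, was lowest in NDEA+CFT-1. Its FPKM was 2.88, 2.97 and 1.47 in Control, 6.24, 2.95 and 3.99 in NDEA, 3.30, 4.11 and 4.30 in NDEA+FYT, and 1.73, 0.825 and 1.13 in NDEA+CFT-1. The NDEA+CFT-1 libraries lay below all NDEA and NDEA+FYT libraries and overlapped with Control. The difference was -1.25 from NDEA (SE 0.268, limma adjusted p = 0.326) and -1.15 from NDEA+FYT (limma adjusted p = 0.896). Its pattern was shared by many annotated rows, since 186 had an r of at least 0.9, and ENSRNOG00000008782 was the nearest with 0.99. Novel01095 (2837 bases) was of the same kind, with a mean FPKM of 1.96 ± 0.536 in NDEA+CFT-1 and 4.83 ± 1.15 in NDEA+FYT (SD, n = 3 each), a log2 difference of -0.98 with limma adjusted p = 0.896.

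Novel00095, of 8616 bases, had FPKM of 9.10, 10.2 and 5.45 in Control, 8.67, 5.50 and 6.74 in NDEA, 5.65, 5.75 and 4.39 in NDEA+FYT, and 2.79, 3.25 and 3.92 in NDEA+CFT-1. The 3 NDEA+CFT-1 libraries were below the other 9. Novel01679, of 1471 bases and with a mean FPKM of 30.0, ran the other way. Its FPKM was 22.6, 29.8 and 22.9 in Control, 26.9, 16.7 and 21.2 in NDEA, 41.3, 37.2 and 41.1 in NDEA+FYT, and 40.8, 32.8 and 27.5 in NDEA+CFT-1. The NDEA+FYT libraries lay above all Control and NDEA libraries, and all NDEA+CFT-1 libraries lay above all NDEA libraries. No annotated row had an r of 0.9 or more with either locus.

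**Figure D5:**
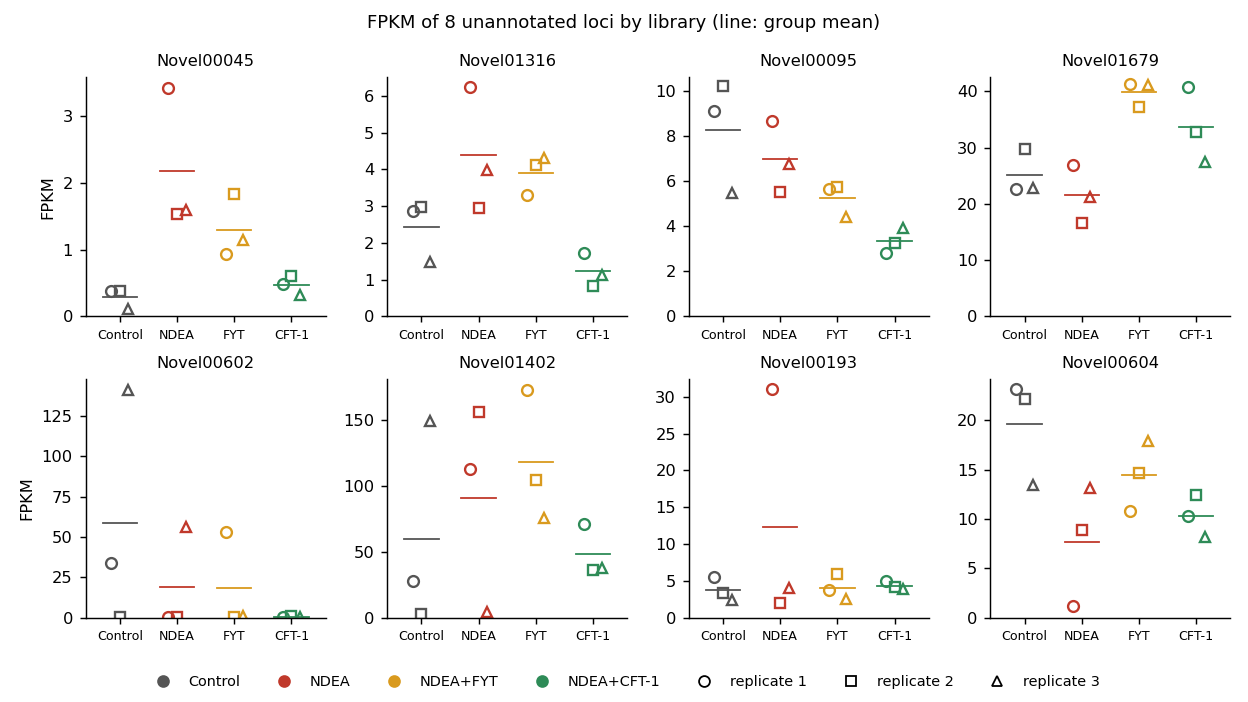
FPKM (vertical axis, a scale for each locus) of 8 unannotated loci by group, with a point for each library and a line at the group mean. The upper row holds 4 of the 5 loci with the smallest p over the groups. The lower row holds 4 of the 5 loci with the widest gap, such as Novel00193 with 31.0 in NDEA replicate 1.

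The comparison of NDEA with Control addressed what NDEA changed. It called 0 loci at an adjusted p under 0.05 (0% of all rows), with a smallest adjusted p among the loci of 0.524 in limma's test. Before adjustment 54 loci (7.78%) passed, and 8.7% of all rows did. Of the 54 loci, 38 were higher in NDEA (7.59% of all rows were called in this direction) and 16 lower (1.11% of all rows). The libraries of the groups did not overlap for 63 loci (9.08%) and for 12.3% of all rows. Of these, 46 loci were higher in NDEA (10.8% of all rows) and 17 lower (1.52% of all rows). The counts of higher and lower loci moved with the scaling of the libraries, from 38 and 16 to 24 and 37 after median-of-ratios scaling, which moved the median difference of all rows from 0.20 to 0.01. After quantile normalization the split was 13 higher and 53 lower, with a median difference of -0.125 for the loci and -0.0216 for all rows. The share of all rows passing in each direction was counted only for the main fit, here and in the comparisons below. A split of passing loci under another scaling, or with libraries left out, thus has no such share beside it. The loci passing were 8.79% after median-of-ratios scaling (8.08% of all rows) and 9.51% after quantile normalization (6.46% of all rows), above all rows in place of below them. The median difference of the loci was 0.13 as deposited and -0.03 after median-of-ratios scaling, and it was 0.0462 without Control replicate 3 and 0.0574 without NDEA replicate 1. Before adjustment, 28 loci passed without NDEA replicate 1 (3.14% of all rows) and 105 without NDEA replicate 2 (19.3% of all rows). Without Control replicate 3, 40 loci passed (3.43% of all rows), 11 higher and 29 lower. The loci whose libraries did not overlap also turned without Control replicate 3, to 57 higher (12.9% of all rows) and 81 lower (4.49% of all rows).

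By level, the loci were lower in NDEA than in Control more often than annotated rows of like level in each class. Between 1 and 2 FPKM 32.9% of the loci and 11.8% of the annotated rows were lower, with median differences of 0.12 and 0.32. These shares were 31.4% and 13.4% between 2 and 5, 28.7% and 16.0% between 5 and 10, and 49.2% and 29.0% between 10 and 50. Most loci were lower only in the most abundant class. Of the 15 loci with a mean FPKM of 50 or more, 13 were lower in NDEA than in Control, with a median difference of -0.33, while 742 of 1431 annotated rows of that class were lower, with a median of -0.01. Without Control replicate 3, NDEA replicate 1 and NDEA+CFT-1 replicate 2, 13 loci (86.7%) and 68.0% of the annotated rows were lower, with medians of -0.33 and -0.11. The difference between both kinds was not tested. Novel00839 (2263 bases) had 0.155, 0.540 and 0.376 FPKM in Control and 2.68, 1.69 and 1.34 in NDEA, without overlap. The log2 difference was 1.08 (SE 0.245, limma adjusted p = 0.524). Novel01647 had 5.54, 4.69 and 6.50 FPKM in Control and 2.90, 2.86 and 3.51 in NDEA, also without overlap, with a log2 difference of -0.68 (limma adjusted p = 0.524). Novel00604 (5121 bases) had 23.1, 22.1 and 13.5 FPKM in Control and 1.15, 8.84 and 13.2 in NDEA, where the lowest value was that of NDEA replicate 1. Its log2 difference was -1.58 (SE 0.543, limma adjusted p = 0.524) and -0.77 without that library.

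The comparison of NDEA+CFT-1 with NDEA addressed what CFT-1 tea changed in rats given NDEA. It had 0 calls after adjustment among the loci (0% of all rows, smallest adjusted p 0.326 in limma's test). Before adjustment 111 loci (16.0%) passed, and 12.6% of all rows did. Of these, 15 loci were higher in NDEA+CFT-1 (1.76% of all rows) and 96 lower (10.8% of all rows). The rows passing were not counted by level. By group means alone, 76.8% of the loci and 87.6% of the annotated rows between 1 and 2 FPKM were lower, with medians of -0.25 and -0.33. These shares were 77.4% and 83.6% between 2 and 5, 79.8% and 78.1% between 5 and 10, and 57.4% and 59.0% between 10 and 50. Among the 694 loci, 33 passed the mean FPKM of 1 only through NDEA and 7 only through NDEA+CFT-1. For these loci the filter favored a high value in that group, which enters the counts of this comparison. The libraries did not overlap for 159 loci (22.9%) and 16.8% of all rows, with 19 loci higher (2.7% of all rows) and 140 lower (14.1% of all rows). Fewer libraries overlap less often by construction, and without NDEA replicate 1 it was 40 loci higher (10.7% of all rows) and 177 lower (16.6% of all rows). Without NDEA+CFT-1 replicate 2 it was 43 higher (9.93% of all rows) and 180 lower (16.7% of all rows). Without the 3 libraries that stood apart, 42.4% of the loci and 42.1% of all rows did not overlap, with 72 loci (10.4%) higher against 22.8% of all rows and 222 (32.0%) lower against 19.3%. The split was 29 higher and 73 lower after median-of-ratios scaling and 41 higher and 33 lower after quantile normalization, so the lower majority depended on the scaling. The loci passing were then 14.7% (14.7% of all rows) and 10.7% (10.9% of all rows), no longer above the share of all rows. After median-of-ratios scaling the median difference was -0.106 for the loci and -0.000539 for all rows. After quantile normalization these medians were 0.0403 and 0.0316. Without NDEA replicate 1 and NDEA+CFT-1 replicate 2 together, 63 loci (9.08%) passed, against 6.68% of all rows, with 13 higher and 50 lower. The median difference was then -0.138 for the loci and 0.0231 for all rows.

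Novel01569 (3516 bases) had 8.35, 4.53 and 3.16 FPKM in NDEA and 1.86, 0.980 and 1.18 in NDEA+CFT-1, without overlap and with a log2 difference of -1.37 (SE 0.316, limma adjusted p = 0.326). On the other side, Novel00492 (2674 bases) had 0.0965, 0.145 and 0.417 FPKM in NDEA and 2.76, 2.40 and 1.34 in NDEA+CFT-1. Its log2 difference was 1.36 (SE 0.303, limma adjusted p = 0.326), and the Control libraries, at 0.690, 1.53 and 1.12, also lay above those of NDEA. It passed the mean FPKM of 1 only through NDEA+CFT-1, with a mean of 0.999 in the other 9 libraries. Novel00350 (2638 bases) had 21.7, 32.6 and 38.6 FPKM in NDEA and 73.2, 92.8 and 44.1 in NDEA+CFT-1, with a log2 difference of 1.13 (SE 0.284, limma adjusted p = 0.326). Of the 15 loci with a mean FPKM of 50 or more, 11 were higher in NDEA+CFT-1 than in NDEA and 4 (26.7%) lower, against 33.8% of annotated rows of that class lower, with median differences of 0.35 and 0.11. Without the 3 libraries these medians were 0.16 and 0.13, and 6 loci (40.0%) were lower against 29.6% of the annotated rows, which turned the order of the shares.

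For NDEA+FYT against NDEA, 0 loci passed after adjustment (0% of all rows, smallest adjusted p 1 in limma's test). Before adjustment 27 loci (3.89%) passed, and 1.48% of all rows did. These were 20 loci higher in NDEA+FYT (1.07% of all rows) and 7 lower (0.413% of all rows). Without NDEA replicate 1, 16 loci passed (2.29% of all rows), and without NDEA replicate 2, 44 (4.78% of all rows). Of these 44 loci, 18 were higher and 26 lower, so the higher majority turned without that library. The median difference was then -0.0623 for the loci and -0.101 for all rows. The libraries did not overlap for 54 loci (7.78%) and 5.95% of all rows, with 34 loci higher (3.91% of all rows) and 20 lower (2.03% of all rows). Without NDEA replicate 1 it was 129 loci (18.6%), below the 23.7% of all rows, with 88 loci higher (19.7% of all rows). Novel01679, whose values are given above, had the smallest p, with a log2 difference of 0.88 (SE 0.203, limma adjusted p = 1). Novel00492 followed with 1.19, 0.823 and 2.98 FPKM in NDEA+FYT, all above NDEA, and a log2 difference of 1.05 (limma adjusted p = 1). Novel00964 (2688 bases) had 1.80, 5.58 and 1.54 FPKM in NDEA and 0.111, 0.147 and 1.10 in NDEA+FYT, and Novel00950 (1174 bases) 3.30, 5.65 and 3.53 in NDEA and 2.72, 2.31 and 2.13 in NDEA+FYT. Both were without overlap, with log2 differences of -1.38 and -0.58, and that of Novel00950 was -0.39 without NDEA replicate 2.

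The comparison of the 2 teas, NDEA+CFT-1 with NDEA+FYT, had 0 calls after adjustment (0% of all rows, smallest adjusted p 0.896 in limma's test). Before adjustment 72 loci (10.4%) passed, and 5.42% of all rows did. All but 1 of them were lower in NDEA+CFT-1, 71 loci against 5.24% of all rows, and 0.177% of all rows were higher. The libraries did not overlap for 159 loci (22.9%) and 21.2% of all rows, with 6 loci higher (2.29% of all rows) and 153 lower (18.9% of all rows). Without NDEA+CFT-1 replicate 2 it was 28 higher (9.3% of all rows) and 221 lower (24.1% of all rows). The median difference of the loci was -0.21, and that of all rows -0.14. Without NDEA+CFT-1 replicate 2 these medians were -0.21 and -0.0742. Between 1 and 2 FPKM, the median was -0.20 for the loci and -0.22 for annotated rows of like level. Between 2 and 5 FPKM both medians were -0.23. They were -0.25 and -0.18 between 5 and 10, -0.14 and -0.08 between 10 and 50, and 0.09 and 0.05 at 50 or more. After median-of-ratios scaling 7 loci were higher and 42 lower, with a median of -0.09 for the loci and 0.0016 for all rows, and after quantile normalization 19 were higher and 20 lower. These were 7.06% (5.9% of all rows) and 5.62% (4.35% of all rows) of the loci. The count of 72 loci became 38 without NDEA+FYT replicate 1 (2.88% of all rows), 32 without NDEA+FYT replicate 2 (2.94% of all rows), 40 without NDEA+CFT-1 replicate 2 (2.51% of all rows) and 48 without NDEA+CFT-1 replicate 3 (5.13% of all rows). The single higher locus was Novel01549 (515 bases), with 1.59, 2.48 and 1.90 FPKM in NDEA+CFT-1 and 0.871, 1.10 and 0.627 in NDEA+FYT. It passed the mean FPKM of 1 only through NDEA+CFT-1, with a mean of 0.999 elsewhere. Its median count was 11.5 fragments, and the log2 difference of 0.68 (SE 0.233) had a limma adjusted p of 0.896. The next higher locus, Novel00510, had a log2 difference of 0.38 (SE 0.187) and likewise a mean of 0.953 outside NDEA+CFT-1.

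The comparisons of either tea with NDEA share the NDEA libraries, and so does the comparison of NDEA with Control, so their values are not independent of each other. A limma-voom fit on the recovered fragments had 0 adjusted calls in each of the 4 comparisons, and 60, 118, 20 and 79 loci before adjustment, in the order in which the comparisons are described above. The shares of all rows were 9.58, 13.4, 1.09 and 6.07%. A change of at least 2-fold in the group mean of log2(FPKM + 1), without a test, was found for 23, 31, 9 and 17 loci in the same order, or 3.31, 4.47, 1.3 and 2.45% of them. The shares of the annotated rows were 3.14, 3.11, 0.708 and 1.17%.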

How the data were processed

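RNA of 12 livers of male Wistar rats was sequenced, 3 per group, which the study calls biological replicates, with groups and replicate numbers taken from the sample labels. The authors cleaned paired reads with Trimmomatic and aligned them by HISAT2. They dropped PCR duplicates, counted unique reads per gene and deposited FPKM. The submitters' processing notes name HTSeq 0.6.1 and Rnor_6.0. How the unannotated loci were assembled is not given in the sources used here. The authors' test, DEGSeq, was not run.

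Because FPKM is a whole count divided by length and library total, counts, lengths and totals were recovered by search over totals. Member counts lay within 7.78e-05 of whole numbers, where 0.02 was allowed, and 22232 of 22233 rows above 0 in at least 2 libraries gave whole counts.

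Rows with a mean FPKM of at least 1 (11854) entered limma 3.58.1 in R 4.3.3 on log2(FPKM + 1) with a pseudocount of 1 and no further scaling, all 4 groups in 1 fit, eBayes with a trend, and Benjamini-Hochberg adjustment over all rows. A fold change on this scale understates that of low loci. Rows were called at an adjusted p under 0.05. Counts at an unadjusted p under 0.05 and of groups without overlapping libraries are descriptions. Summed shares were compared by exact two-sided permutation tests. The fit and the count recovery were tested on simulated data. Of 200 rows with a planted log2 change of 1 for NDEA with Control, the fit recovered 44.5%, with 10 false calls. For a planted log2 change of 2 it recovered 86.5%, with 5 false calls. A lack of adjusted calls thus does not show that no row changed. Plots used matplotlib 3.10.9.

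The loci named were the 10 of highest mean, the 5 with the smallest F-test p, the 2 higher and 2 lower loci with the smallest p in each comparison, the 5 most and 3 least variable within groups, the 5 with the widest gap, and the 3 on each side of the threshold. The members, lists and rules were chosen with earlier results of these data known. Each of the 4 comparisons was repeated under 23 alternatives, of which the limma-voom fits of recovered counts and the fit without both NDEA replicate 1 and NDEA+CFT-1 replicate 2 were added after seeing the data. Of the table's library columns, 0 lacked a matching sample, and 0 IDs matched a symbol, so lists of cell type markers were not analysed here.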

Additional observations from a re-analysis of the deposited data

Results flagged for a closer look

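Novel01549 was the 1 locus named above for which the tea groups moved apart from NDEA in opposite directions in every library. All 3 NDEA+CFT-1 libraries, at 1.59, 2.48 and 1.90 FPKM, lay above the NDEA libraries at 1.25, 1.22 and 1.21, a log2 difference of 0.41. All 3 NDEA+FYT libraries, at 0.871, 1.10 and 0.627, lay below them, a log2 difference of -0.27 (-0.17 without NDEA+FYT replicate 3). Neither difference from NDEA had an unadjusted limma p under 0.05 (0.103 for NDEA+CFT-1 and 0.277 for NDEA+FYT). The effects differed by 0.677 (SE 0.233, limma adjusted p = 0.896), which failed the correction. The locus passed the mean FPKM of 1 only through NDEA+CFT-1, the group where it was high, with a mean of 0.999 in the other 9 libraries, so the filter favored this difference. The median count behind these values was 11.5 fragments.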

How the results depend on the processing

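No alternative but library weights gave an adjusted call among the loci. With limma's library weights (gene-by-gene method, since the REML method did not converge), 2 loci were called for NDEA+CFT-1 with NDEA, Novel00852 (adjusted p = 0.046, against 0.334 without weights) and Novel01165 (adjusted p = 0.048, against 0.326), both named after their values were seen, beside 19 calls over all rows. Weights moved the unadjusted counts to 67 for NDEA+FYT with NDEA, 157 for NDEA+CFT-1 with NDEA+FYT and 168 over the 4 groups (7.06, 15.3 and 17.2% of all rows). Fitting only the groups compared gave 23 loci for NDEA with Control (3.31%, against 3.69% of all rows) and 121 for NDEA+CFT-1 with NDEA+FYT (11.9% of all rows), and quantile normalization gave 39 for the latter (4.35% of all rows). Leaving out 1 library gave 28 (without NDEA replicate 1) to 105 (without NDEA replicate 2) for NDEA with Control, 16 to 44 (the same libraries) for NDEA+FYT with NDEA, 32 (without NDEA+FYT replicate 2) to 90 (without NDEA replicate 1, 8.7% of all rows) for NDEA+CFT-1 with NDEA+FYT, and 41 (without NDEA+CFT-1 replicate 3) to 93 (without Control replicate 3, 6.71% of all rows) over the 4 groups. Leaving out both NDEA replicate 1 and NDEA+CFT-1 replicate 2, chosen after seeing the data, gave 33 for NDEA with Control (5.61% of all rows) and 63 for NDEA+CFT-1 with NDEA. The median difference of the loci reversed to -0.0297 for NDEA with Control under median-of-ratios scaling. Under quantile normalization it reversed to -0.125 for NDEA with Control, 0.0403 for NDEA+CFT-1 with NDEA, 0.00708 for NDEA+FYT with NDEA and 0.0381 for NDEA+CFT-1 with NDEA+FYT. For NDEA+FYT with NDEA it ran from -0.0623 to 0.084 (without NDEA replicate 1) when 1 library was left out, with 0.0209 without NDEA+FYT replicate 3. The number of loci was 1129 at a mean FPKM of at least 0.5, 396 at 2, and 368 with at least 1 in each library. Differences in the summed share reversed to 0.0368, -0.0896 and -0.00243 percentage points for NDEA with Control, NDEA+CFT-1 with NDEA and NDEA+FYT with NDEA without the 10 most abundant loci. They ran from -0.0749 to 0.0171 (without Control replicate 1) and from -0.0309 (without NDEA+CFT-1 replicate 2) to 0.077 for the first 2 when 1 library was left out. For all of these, the cause was not tested. With the replicate number as a block, 48, 124, 27 and 78 loci passed before adjustment in the 4 comparisons and 74 over the groups, with 0 adjusted calls. The shares of all rows were 9.42, 13.2, 1.65, 6.41 and 6.83%, and the 48 loci (6.92%) lay below theirs. The numbers do not pair the samples, since same-numbered libraries had correlations of their deviations from -0.467 to 0.282, and 5 of 12 libraries correlated best with their own number. For the 14 loci named for a comparison by their small p, 368 of 368 alternative values in that comparison kept their direction. That p came from the same libraries, so the choice of these loci favored a steady direction. Loci named for other reasons changed sign under some alternatives, as Novel00192 did for NDEA+CFT-1 with NDEA+FYT under 8 of 23. The median spread of the loci ran from 0.304 (without NDEA replicate 1) to 0.494 (pseudocount of 0.1) and exceeded that of annotated rows in each of 15 alternatives. Depth limits the 38 loci with a median count under 20.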
